A study of Mus musculus with 4 samples.

Results

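The naive cells of libraries 2 and 4 were mouse embryonic stem cells (mESC) picked from a droplet single-cell RNA experiment by raw counts of 8 genes, and they numbered 2782 of 31989 kept cells. Library 2 held 1981 of them and library 4 held 801. A cell was taken when it had at least 5 unique molecular identifiers (UMIs, each a counted transcript) of Zfp42, 0 UMIs of Fgf5, Pou3f1 and Dnmt3a together, under 10 of Dnmt3b, under 3 of Tbx3 and under 5 of Krt8 and Krt18 together. The same limits gave 5562 cells in libraries 1 and 3, which served for comparison. These counts of Zfp42, Dnmt3b, Tbx3 and the keratins chose the cells, so their levels are descriptions only, and so is every difference between these cells and the rest.

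The study compared E14tg2a.4, a male mESC line, with a line derived from it that carries a heterozygous truncation of Srrm2 (Srrm2 hKO), with 2 replicates of each from independent experiments. The Srrm2 hKO cells came from a single gene-trap line, so a property of that line and an effect of the Srrm2 allele cannot be told apart in them. Both lines were grown on gelatin with LIF, the cytokine that holds them in self-renewal, and then in serum-free medium with LIF. The labels give 2 lengths for that last step without tying either to a sample, and the methods for the single-cell libraries state a different length, so the time of growth is uncertain. The 4 libraries were joined in a single matrix in which each barcode ends in a number from 1 to 4, and nothing used here ties a number to a labelled sample. No library was therefore called WT or Srrm2 hKO, and no test, SD or p-value over libraries was computed. Intervals below are exact 95% intervals that cover counting error only.

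Naive pluripotency is the state of the early epiblast, held in culture by a network of transcription factors that includes Nanog, Esrrb, Klf2, Klf4, Tfcp2l1 and Nr5a2. Zfp42, also called Rex1, is its usual reporter gene. On leaving it cells pass through a formative state, in which Otx2, Pou3f1 and Fgf5 come on with the de novo DNA methyltransferases Dnmt3a and Dnmt3b, while Pou5f1 and Sox2 are shared by both states.

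The limits were met by 40.7% of the 8118 kept cells of library 1 (39.6% to 41.8%), 23.3% of 8514 in library 2 (22.4% to 24.2%), 28.6% of 7893 in library 3 (27.6% to 29.6%) and 10.7% of 7464 in library 4 (10.0% to 11.5%). Library 4 had the smallest share and library 1 the largest. Taken alone, the limit on Fgf5, Pou3f1 and Dnmt3a was met by 64.8%, 28.4%, 41.9% and 14.6% of kept cells in libraries 1 to 4, fewer than met the Zfp42 limit in each. Applied in turn, after the Zfp42 limit 77.9% of the kept cells of library 2 and 48.7% of those of library 4 were left, and after the formative limit 25.7% and 12.1%. In libraries 1 and 3 the same steps left 82.3% and 70.0%, then 54.8% and 34.0%. The Tbx3 limit took library 1 from 54.8% to 40.7% and library 4 only from 10.9% to 10.7%. The order of libraries 2 and 3 was not the same under other settings. With every kept cell thinned to 10000 UMIs and the limits unchanged, the shares were 41.4%, 31.8%, 30.4% and 16.4% in libraries 1 to 4, so library 2 then lay above library 3, and with Zfp42 of at least 10 and no thinning they stood at 16.6% and 16.5%.

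**Figure D1:**
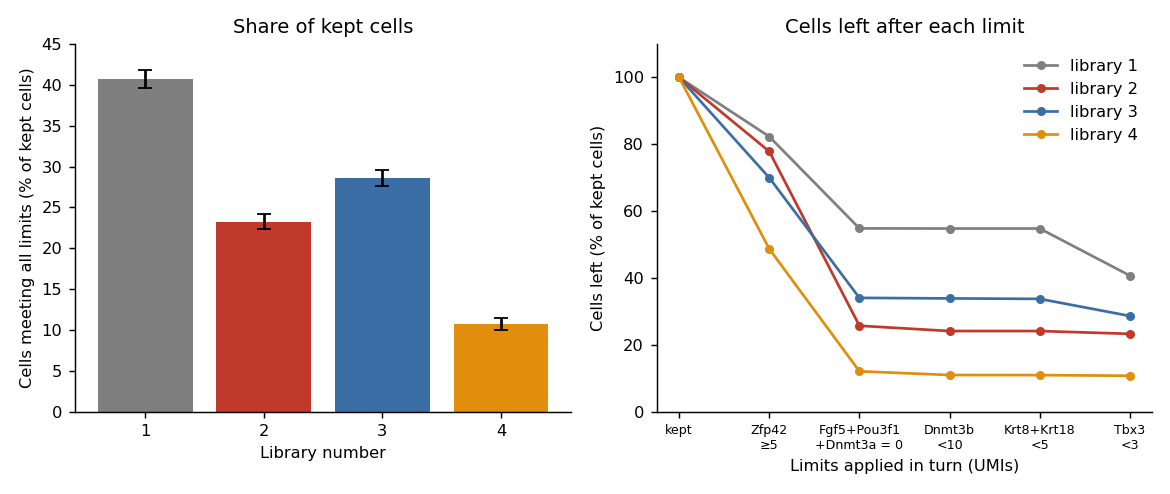
Left, the share of kept cells (percent) that met all limits in each library, with bars from 0 and exact 95% binomial intervals. Right, the percentage of kept cells left as the limits were applied in turn. Library 1 keeps 40.7% and library 4 keeps 10.7%, and the size of each step depends on the order in which the limits were applied.

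The median naive cell held 17443, 20166, 17832 and 19292 UMIs in libraries 1 to 4, and the naive cells summed to 61732373, 41374422, 42226711 and 15970339 UMIs. At these sums the floor of 3 counts equals 0.0486, 0.0725, 0.0711 and 0.188 counts per 1000000 UMIs (CPM), the scale of all levels below. The median mitochondrial share was 5.45%, 4.13%, 4.74% and 3.65%, lower in libraries 2 and 4. Of 13 mitochondrially encoded genes, mt-Nd6 (19.9, 46.7, 23.9 and 52.2 CPM) and mt-Atp8 (29.7, 72.0, 39.7 and 90.0 CPM) passed the counting rule given below as higher there, beside 4.33% of all genes. The part of these differences in the other results was not tested. Of the barcode sequences, 6 occurred in more than 1 library among all cells of the limits, and 0 were shared between the naive cells of libraries 2 and 4. At the Zfp42 limit, in library 2, 99 naive cells had exactly 5 Zfp42 UMIs and 68 cells missed the limits only by having 4, with Klf4 at 131 and 115 CPM. In library 4 those classes held 32 and 33 cells, with Klf4 at 114 and 58.3 CPM.

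Zfp42 (chromosome 8, 43295063 to 43306980, minus strand, GENCODE M21 on GRCm38) stood at 595, 684, 599 and 741 CPM in the naive cells of libraries 1 to 4, and at 470, 496, 346 and 321 CPM in the other kept cells of each. Klf4 (chromosome 4, 55527143 to 55532466, minus strand), which the limits did not use, had at least 1 UMI in 69.2% of the thinned naive cells of library 2 (67.1% to 71.3%) and 58.9% of those of library 4 (55.3% to 62.4%). Kept cells of the same libraries with 5 or more UMIs of Fgf5, Pou3f1 and Dnmt3a together and under 5 of Zfp42 are called formative here. In them the shares were 6.61% and 4.15%. Before thinning the naive shares were 85.6% and 75.9% and the shares in the formative cells 13.5% and 8.45%, at median depths of 20166 and 19292 UMIs in naive and 22088.5 and 22126 UMIs in formative cells. Esrrb (chromosome 12, 86361117 to 86521628, plus strand) was detected in 48.3% and 49.4% of thinned naive cells against 6.18% and 3.78% of formative cells, and in 71.5% and 69.3% against 11.9% and 7.71% before thinning. Klf4 and Esrrb were thus found in more naive than formative cells. The groups were picked on opposite sides of the Zfp42 limit, so this difference describes the choice of cells.

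Markers of other cell types were mostly low. The two-cell-like list was at or under the floor in libraries 2 and 4, with 3 and 1 counts, and had 21 and 47 counts in libraries 1 and 3. The primed or streak list came to 5.0 and 3.63 CPM against 3.81 and 2.72 CPM. Summed over the list, the primitive endoderm list came to 0.749 and 0.626 CPM in libraries 2 and 4, with 1.49 and 1.90 CPM in libraries 1 and 3, and Sox17 was at 0 in libraries 2, 3 and 4. The trophectoderm list came to 4.71 and 4.82 CPM in libraries 2 and 4 and 6.30 and 4.64 CPM in libraries 1 and 3, with Cdx2 at 0.0242 and 0 CPM in libraries 2 and 4. Fibroblast markers stood at 3.0 and 2.51 CPM against 1.33 and 1.40 CPM, and Dcn was at 0 in all 4. The neural list was the highest of these, at 63.2 and 54.7 CPM against 64.0 and 55.6 CPM. Pax6 made up the smaller part of this, at 14.5 and 11.7 CPM against 19.4 and 19.5 CPM, and Sox1 was at most 0.971 CPM. Most of the sum came from members not named here.

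Srrm2 (chromosome 17, 23790532 to 23824741, plus strand), the targeted gene, stood at 382, 503, 223 and 327 CPM in the naive cells of libraries 1 to 4. Libraries 3 and 4 were thus the lower ones, and libraries 2 and 4 lay on opposite sides of library 1. The values were not used to assign a library. Srrm1, a related splicing coactivator, stood at 295, 353, 298 and 341 CPM, and Sf3b1, a core protein of the U2 particle, at 260, 266, 262 and 257 CPM. None of the 20 SR and U2 splicing genes passed the counting rule that follows, which 4.33% of all genes passed as higher and 3.01% as lower, so a count of 0 is near those shares.

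Of the core regulators, Esrrb was the most even. It stood at 68.8, 67.8, 68.0 and 68.8 CPM in libraries 1 to 4, and the ratio of library 4 to library 2 was 1.01 (0.945 to 1.09). The other kept cells were less even, with 65.8, 48.5, 43.1 and 26.5 CPM. Klf2, a Kruppel-like factor, was at 579, 566, 566 and 461 CPM, and Klf5, its relative, at 278, 206, 218 and 197 CPM. Klf4 was at 183, 143, 154 and 116 CPM, lowest in library 4, and its ratio of library 4 to library 3 was 0.754 (0.716 to 0.794). Nanog stood at 166, 175, 146 and 135 CPM. Tfcp2l1, at 102, 112, 91.7 and 78.5 CPM, was lower in library 4 than in library 2 by a ratio of 0.701 (0.658 to 0.746). Nr5a2, an orphan nuclear receptor that regulates Pou5f1, had another order, at 26.2, 37.2, 23.4 and 32.3 CPM, with both of libraries 2 and 4 above both of the others. None of these 7 regulators passed the counting rule in either direction, which is near the 4.33% and 3.01% of all genes.

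**Figure D2:**
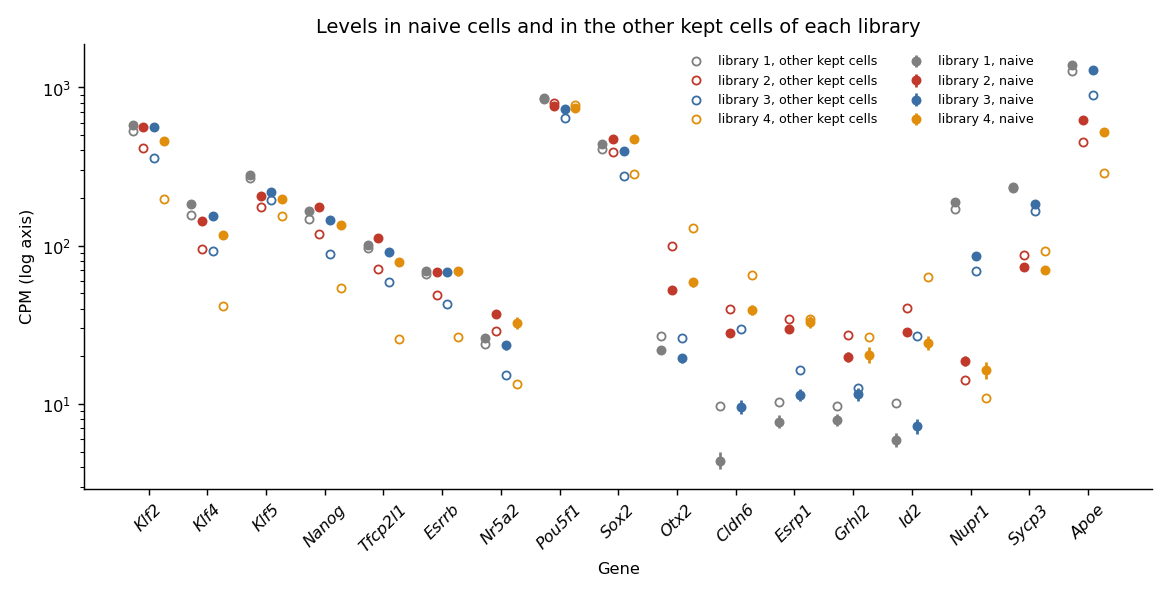
CPM on a log axis for 17 genes in each library, filled for naive cells with exact 95% Poisson intervals and open for the other kept cells of the same library. Esrrb lies at 67.8 to 68.8 CPM in the 4 naive groups, while Otx2, Cldn6 and Id2 of libraries 2 and 4 lie above those of libraries 1 and 3 and Nupr1, Sycp3 and Apoe lie below.

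The rule counted a gene as higher when its CPM in libraries 2 and 4 were each at least 1.5 times its CPM in libraries 1 and 3, and as lower when each was at least 1.5 times below. Of 7110 genes with a mean of the 4 CPM of at least 10, 308 were higher (4.33%) and 214 lower (3.01%). A gene can meet that mean through the libraries in which it is high alone, so counts of list members describe the lists and support nothing further. Scaling mattered for this split. With TMM factors, which centre the bulk of the genes, 159 were higher and 345 lower, and with median-of-ratios factors 178 and 327. The median gene was 0.11, 0.10, 0.07 and 0.06 higher on the log2 scale in library 2 over 1, 2 over 3, 4 over 1 and 4 over 3, and values below are not corrected for that shift. Among all kept cells the rule gave 253 higher (3.46%) and 177 lower (2.42%) of 7305 genes. Of the genes higher in naive cells 181 were also higher in all kept cells, which is 58.8% of the first list and 71.5% of the second, and for lower genes 140 were shared (65.4% and 79.1%). These comparisons share the naive cells. Differences also followed the length of the transcript. In the fifth of genes with the shortest transcripts the median log2 ratio of library 2 over 1 was -0.02 and of library 4 over 3 was -0.12, with 3.8% of genes higher and 6.46% lower, while in the fifth with the longest they were 0.21 and 0.20, with 5.91% higher and 0.914% lower. The part of transcript length in the gene differences was not tested.

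**Figure D3:**
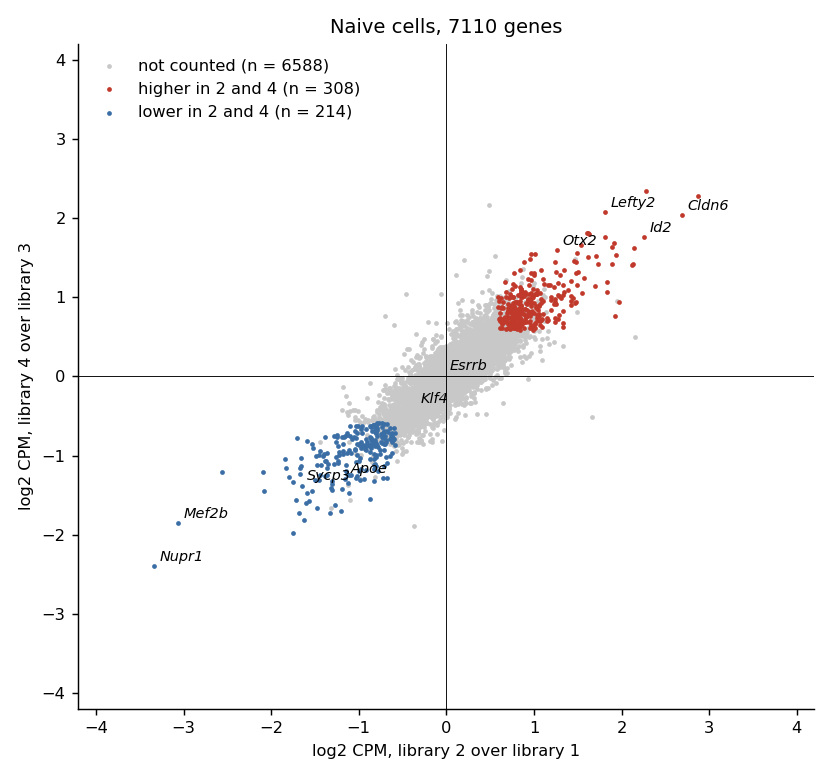
Log2 ratios of CPM in naive cells, library 2 over 1 on the x axis and library 4 over 3 on the y axis, with a point for each of 7110 genes. The 308 red genes were higher and the 214 blue genes lower by all 4 ratios, Nupr1 lies farthest to the lower left, and Esrrb lies at the origin.

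Of the formative genes that the limits did not use, Otx2, Cldn6, Esrp1 and Grhl2 were higher. Of 11 measured, 4 were counted as higher and Etv4 as lower, beside 4.33% higher and 3.01% lower of all genes, but Cldn6, Esrp1 and Grhl2 averaged under 10 CPM in libraries 1 and 3 and met the minimum only through libraries 2 and 4. Otx2 (chromosome 14, 48657677 to 48673819, minus strand), the transcription factor that opens the formative programme, stood at 21.9, 52.3, 19.5 and 58.9 CPM in libraries 1 to 4. Libraries 2 and 4 did not overlap the others, and the ratio was 2.39 (2.23 to 2.56) for library 2 over 1 and 3.03 (2.75 to 3.33) for library 4 over 3. A UMI of Otx2 was found in 34.2% and 35.9% of the thinned naive cells of libraries 2 and 4 (52.6% and 52.9% before thinning) and in 17.8% and 15.6% of those of libraries 1 and 3 (27.7% and 23.7%). In the other kept cells its level was 27.0, 100.3, 26.0 and 129 CPM in libraries 1 to 4. The naive cells of libraries 2 and 4 thus stood below the other cells of their own libraries. They stood above the other cells of libraries 1 and 3. The limits set the groups, so the order within a library describes the choice. Cldn6, a claudin of the embryonic epithelium (chromosome 17, 23679249 to 23682446, plus strand), was at 4.39, 28.2, 9.59 and 39.3 CPM, with ratios from 2.95 (2.63 to 3.31) to 8.94 (7.74 to 10.3). Esrp1, an epithelial splicing factor, was at 7.74, 29.7, 11.4 and 33.0 CPM, and Grhl2, an epithelial transcription factor, at 7.91, 19.8, 11.5 and 20.4 CPM. The other members did not move as a group. Zic2 was at 28.6, 16.1, 14.7 and 8.33 CPM and Zic5 at 35.1, 31.0, 24.8 and 18.5 CPM, lowest in library 4. Etv4, an effector of FGF signalling, was at 24.2, 11.8, 37.4 and 15.4 CPM, so it was at least 1.57 times lower in libraries 2 and 4, but it missed the rule after thinning (a smallest log2 ratio of 0.34) and with no Tbx3 limit. Cldn7 (20.8, 22.3, 26.8 and 43.1 CPM) and Foxd3 (21.2, 26.8, 20.6 and 22.0 CPM) were not counted.

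Cdh1, the E-cadherin of stem cell colonies, was at 36.0, 70.6, 42.9 and 82.2 CPM, and Lamb1, a laminin chain, at 17.5, 29.0, 15.9 and 29.4 CPM, which made 2 of 10 measured adhesion genes beside 4.33% of all genes, although Lamb1 missed the limit under TMM factors. Sdc4, a cell surface proteoglycan, was at 35.2, 83.4, 34.8 and 94.7 CPM, and S100a6, a calcium-binding protein, at 27.4, 83.5, 30.1 and 105 CPM. Fabp5, a fatty acid carrier, was at 46.5, 138, 56.2 and 133 CPM, and Klhl13, an X-linked ubiquitin ligase adaptor, at 28.9, 109, 42.6 and 138 CPM. Sdc4, S100a6, Fabp5, Klhl13, Rcn3, Ccdc62, Nol4l and Id2 were among the 12 with the largest smallest-of-4 ratio, while Cdh1 and Lamb1 were not. Ccdc62 and Id2 were among those that met the CPM minimum only through the libraries in which they were high.

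Signalling genes divided. Id2 (chromosome 12, 25093799 to 25097140, minus strand), an inhibitor of differentiation that BMP induces, was at 5.95, 28.4, 7.22 and 24.4 CPM, with ratios from 3.38 (2.90 to 3.94) to 4.77 (4.24 to 5.38), while its relatives Id1 (15.6, 39.1, 27.8 and 36.3 CPM) and Id3 (24.0, 45.1, 32.2 and 37.9 CPM) missed the rule over library 3 in both libraries 2 and 4. Smad1, the BMP effector, was counted as lower, at 22.4, 10.4, 20.3 and 12 CPM, but missed the rule among cells with a Dnmt3b count of 0 (a smallest log2 ratio of 0.46). Of 6 measured Id and BMP genes, Id2 alone was counted as higher and Smad1 alone as lower, beside 4.33% and 3.01% of all genes. Id2 met the CPM minimum only through libraries 2 and 4. Lefty2, an inhibitor and target of Nodal, was at 21.9, 77.0, 8.83 and 37.1 CPM and Lefty1 at 47.9, 91.9, 31.6 and 44.5 CPM, so library 2 was highest for both. The ligand Nodal was at 34.0, 25.6, 27.5 and 18.0 CPM. Of 8 measured Nodal genes Lefty2 and Skil, a repressor of Smad signalling, were counted as higher, beside 4.33% of all genes. In the LIF and STAT3 list 0 of 10 measured genes were counted, near the 4.33% and 3.01% of all genes, with Lifr at 26.4, 28.9, 27.7 and 28.4 CPM and Socs3, a STAT3 target, at 43.6, 41.1, 41.9 and 46.0 CPM. Among 8 FGF and ERK genes Ier3 alone was counted, and it was higher, beside 4.33% of all genes. Ier3 too met the CPM minimum only through libraries 2 and 4.

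General pluripotency genes were close. Pou5f1 stood at 854, 767, 727 and 743 CPM and Sox2 at 442, 474, 398 and 476 CPM. Mycn alone of 12 was counted as higher, beside 4.33% of all genes, at 85.4, 149, 97.0 and 146 CPM, with a smallest ratio of 1.51 that fell below 1.5 under TMM factors. Of 15 measured naive-associated genes, 1 was counted as higher and 2 as lower, beside 4.33% and 3.01% of all genes, and the list had median log2 ratios of -0.11, -0.26, -0.41 and -0.42 in library 2 over 1, 2 over 3, 4 over 1 and 4 over 3. Dppa3, also called Stella, which protects DNA methylation in the zygote, was higher at 26.4, 94.0, 62.3 and 130 CPM, whereas Nr0b1, an X-linked partner of Esrrb and Pou5f1, was lower at 156, 89.0, 154 and 71.7 CPM, as was Mylpf, a muscle light chain, at 170.1, 93.3, 236 and 81.0 CPM. Dppa3 missed the limit under TMM factors. Of 8 measured p53 targets 2 were higher, namely Trp53inp1 and Zmat3, beside 4.33% of all genes, and both lost the count under TMM factors. Slc2a1, the main glucose transporter, was the single one of 15 glycolysis genes to be counted, near the 4.33% of all genes, at 78.4, 140, 84.0 and 152 CPM. Of 9 measured SRF targets and actins, Srf itself was higher, at 6.35, 14.5, 8.62 and 15.4 CPM, and Tagln2, an actin-binding protein, lower, at 178, 80.1, 140.2 and 83.0 CPM, beside 4.33% higher and 3.01% lower of all genes, and Srf met the minimum only through libraries 2 and 4. Cell cycle genes were not counted, with 0 of 14 S and 0 of 14 G2/M genes in either direction, near the 4.33% and 3.01% of all genes.

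**Figure D4:**
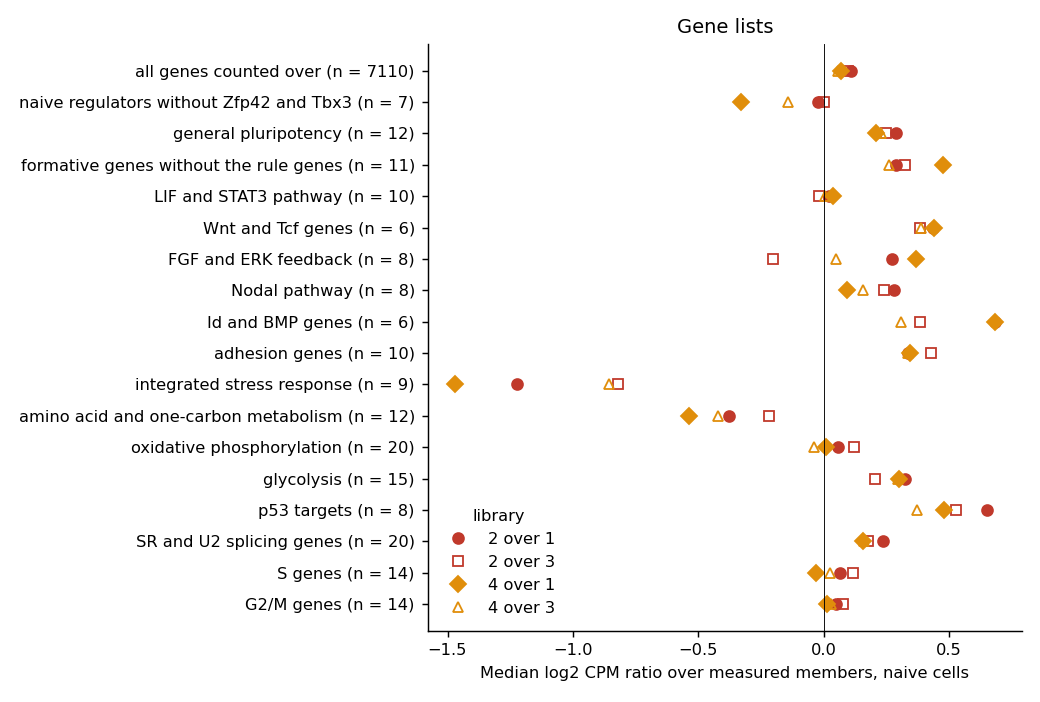
Median log2 CPM ratio over the measured members of the pluripotency, formative, signalling, adhesion, stress, metabolic, p53, splicing and cell cycle lists in naive cells, with a marker for each of the 4 ratios of libraries 2 and 4 over libraries 1 and 3. The integrated stress response list lies at -0.82 to -1.47, and all genes counted over lie at 0.06 to 0.11.

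The integrated stress response list was the one most often lower. This response raises the transcription factor Atf4 when translation is curbed, and Atf4 then turns on Ddit3, Trib3, Chac1 and amino acid genes. Of its 9 measured members 6 were lower (Atf4, Atf5, Ddit3, Trib3, Chac1 and Nupr1) and 0 higher, beside 3.01% lower of all genes, but Atf5, Ddit3 and Chac1 averaged under 10 CPM in libraries 2 and 4 and met the minimum only through libraries 1 and 3. Ddit3 missed the rule among cells with a Dnmt3b count of 0 (a smallest log2 ratio of 0.51). The list's median log2 ratios were -1.22, -0.82, -1.47 and -0.85 in library 2 over 1, 2 over 3, 4 over 1 and 4 over 3. Nupr1, a small chromatin-associated stress protein (chromosome 7, 126623249 to 126630861, minus strand), stood at 189, 18.8, 86.6 and 16.4 CPM, and was lower by ratios of 4.62 (4.27 to 5.0) in library 3 over 2 to 11.5 (10.2 to 13.1) in library 1 over 4. Atf4 was at 192, 82.2, 134 and 69.2 CPM, Ddit3 at 26.7, 6.28, 20.4 and 8.83 CPM and Chac1, a glutathione-degrading enzyme, at 21.4, 5.05, 10.6 and 3.88 CPM. Libraries 1 and 3 differed too, with library 1 the higher for each. Sesn2 (36.1, 32.6, 32.5 and 32.9 CPM), Slc7a5 (27.9, 31.2, 15.0 and 21.7 CPM) and Ddit4 (21.6, 15.7, 9.33 and 19.2 CPM) were not counted. Asns, asparagine synthetase, was the single one of 12 amino acid and one-carbon genes to be counted as lower, beside 3.01% of all genes, at 516, 196, 329 and 166 CPM. In the other kept cells Atf4 was at 191, 90.4, 158 and 108 CPM and Nupr1 at 171.8, 14.2, 68.8 and 10.98 CPM. The list summed to 559.6, 223.6, 384.5 and 262.8 CPM in those cells. Lower levels in libraries 2 and 4 were thus not particular to the naive cells.

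Measures of the germline list differed in sign. Its sum was 510.5, 400.1, 414 and 342.5 CPM in libraries 1 to 4, lower in libraries 2 and 4. Most of this fall lay in Sycp3, given next, and the sum of library 2 was close to that of library 3. The 4 measured members of 14 had median log2 ratios of 0.11, 0.52, -0.05 and 0.27 in library 2 over 1, 2 over 3, 4 over 1 and 4 over 3. Sycp3, of the synaptonemal complex that joins homologous chromosomes (chromosome 10, 88459569 to 88473236, plus strand), was at 231, 73.8, 183 and 70.3 CPM, with ratios from 2.48 (2.38 to 2.59) in library 3 over 2 to 3.29 (3.1 to 3.5) in library 1 over 4. It was the single one of 4 measured germline genes on the list to be counted, beside 3.01% lower of all genes. Outside the list, and picked after their values were seen, Smc1b, a meiotic cohesin, was at 59.2, 10.1, 22.1 and 9.58 CPM, Tex14 at 26.5, 7.44, 20.5 and 9.14 CPM and Syce1 at 19.9, 8.27, 16.7 and 5.45 CPM. Smc1b, Tex14 and Syce1 averaged under 10 CPM in libraries 2 and 4 and met the minimum only through libraries 1 and 3. Many germline promoters carry the E-box letters CACGTG, and the window of 250 bases upstream of the RefSeq start of Sycp3 (GRCm38.p6, chr10:88459337-88459586, plus strand) is shown because it holds them in 2 places, in capitals. The windows of Smc1b, Tex14 and Syce1 do not hold them.

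Sycp3: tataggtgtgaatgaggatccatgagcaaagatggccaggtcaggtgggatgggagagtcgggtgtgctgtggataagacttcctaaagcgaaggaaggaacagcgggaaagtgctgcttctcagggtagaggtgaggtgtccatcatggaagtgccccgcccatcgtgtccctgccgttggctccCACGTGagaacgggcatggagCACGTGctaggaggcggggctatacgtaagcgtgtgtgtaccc

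CACGTG, which reads the same on both strands, occurred in 7 of the 12 germline genes with such a window, in 6.86% of all 27025 genes with one and in 11.0% of the 5721 counted genes with one. Among the genes higher and lower in libraries 2 and 4 it occurred in 10.2% and 9.88%, near the share of all counted genes. The letters TGATGNAAT, a form bound by Atf4 with a C/EBP partner and searched on both strands, occurred in 0.472% of counted genes, in 2 of 244 higher genes and in 3 of 172 lower genes. Of the 9 stress response genes with a window, Nupr1 alone held them. Forms that differ in a letter and sites outside the window were not searched, so other Atf4 sites in these genes may have been missed.

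The other leading lower genes came from several roles. Mef2b, a MADS-box factor, was at 30.0, 3.60, 16.1 and 4.45 CPM, and Vegfc, a lymphatic growth factor, at 20.3, 6.04, 19.06 and 4.82 CPM. Mymx, a muscle fusion peptide, was at 189, 57.3, 211 and 71.4 CPM and Hebp1, a heme-binding protein, at 61.7, 17.7, 42.5 and 17.6 CPM. Bdh2, Fggy, Uap1l1, Nagk, Akr1e1 and Efcab2 completed the 12 with the largest smallest-of-4 ratio. Mef2b, Vegfc, Bdh2, Fggy, Akr1e1 and Efcab2 were among those that met the CPM minimum only through the libraries in which they were high. Apoe, a lipid carrier named after its values were seen, was at 1393, 624, 1283 and 523 CPM, and Arrdc4, an arrestin-like regulator of glucose uptake, at 119, 43.4, 91.4 and 36.9 CPM. Over all kept cells the 12 genes named here were lower too, with smallest ratios from 1.99 for Arrdc4 to 3.335 for Bdh2. All kept cells include the naive cells, and the genes were picked for their ratios or after their values were seen. Lower values were thus likely in advance and are no independent test.

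Libraries 2 and 4 were the most alike of the 6 pairs. A difference of at least 1.5-fold was found for 120 genes between them, 60 in each direction (0.844%), for 165 genes between libraries 1 and 3, and for 938 to 1438 genes in the 4 pairs across. Several of the genes that separated libraries 2 and 4 separated libraries 1 and 3 in the same direction. Ddx3y, on the Y chromosome, was at 28.5, 21.5, 5.85 and 5.82 CPM, Eif2s3y at 103, 84.2, 28.4 and 28.1 CPM and Uty at 17.3, 15.1, 4.26 and 4.51 CPM. The imprinted gene Mest was at 0.940, 1.5, 32.6 and 33.6 CPM, a ratio of 22.4 (17.2 to 29.6) for library 4 over 2, and Zdbf2, also imprinted, at 18.4, 16.6, 58.5 and 62.8 CPM. Hormad1, a meiotic chromosome axis protein, was at 51.2, 20.5, 25.0 and 7.89 CPM and the neural adhesion gene Ncam1 at 61.2, 28.5, 32.3 and 11.0 CPM, so both were lowest in library 4. Dnah8, a dynein chain, was at 85.8, 63.4, 47.2 and 27.6 CPM. Histone genes ran the other way, with Hist1h2ap at 469, 793, 999 and 1789 CPM and Hist1h2ae at 76.4, 117, 122 and 230.1 CPM, and these belong to near-identical families whose reads may be split between copies. S100a13 (4.39, 7.69, 9.95 and 19.2 CPM) and Cldn7 were also higher in library 4, though S100a13 counts were very uneven between the cells of library 4, as given below. Between libraries 2 and 4 naive levels of Klf4 and Nanog had ratios of 0.814 (0.773 to 0.858) and 0.772 (0.736 to 0.810).

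Against the other kept cells of their own library, 12 of 7244 genes were at least 1.5-fold higher in the naive cells of libraries 2 and 4 (0.166%) and 127 lower (1.75%). The limits chose these cells, so the counts describe the choice. Rhox6 and Rhox9, X-linked homeobox genes of the germline, were 1.78 and 1.79 times higher in library 2 and 3.92 and 3.91 times in library 4. Others that led were Krt42 and Krt17, keratins, Tfap2c, a factor of naive cells and germ cells, Fabp3 and Lefty2, at 1.60 to 1.66 times in library 2. The genes lower by most were Tagln, an SRF target of contractile cells, at 15.1 and 32.2 times lower, Enpp2 at 11.2 and 12.9 times, Sema6a at 7.82 and 17.1 times and Car4 at 7.26 and 10.2 times, followed by Zfp608, Pim2, Kif1a and Arl4c. In cells that missed only the formative limit, 3103 in library 2 and 1627 in library 4, Otx2 was at 70.7 and 102 CPM and Klf4 at 129 and 95.1 CPM. These levels lay between those of the naive cells and of all other kept cells, a group that includes these cells. The limits set the groups, so this order too describes the choice.

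Dnmt3b was allowed to vary below the limit of 10 UMIs and stood at 56.5, 154, 81.0 and 165 CPM in the naive cells of libraries 1 to 4, so cells were also set side by side by their Dnmt3b UMIs after thinning, which does not make their Dnmt3b levels equal. Among thinned cells with 0 Dnmt3b UMIs (1984, 558, 1112 and 220 cells), Otx2 was at 22.9, 41.0, 19.9 and 54.1 CPM, Cldn6 at 4.79, 25.1, 9.17 and 34.6 CPM and Id2 at 5.44, 23.1, 8.0 and 16.4 CPM. Nupr1 was at 186, 18.8, 91.7 and 17.3 CPM and Sycp3 at 229, 74.2, 187 and 76.8 CPM. These 5 genes were chosen for their differences and describe themselves only. Of 59 named genes that passed the rule, 8 missed it when the cells were limited to a Dnmt3b count of 0 without thinning, namely Ddit3, Fabp3, Lamb1, Mycn, Pim2, Smad1, Tex14 and Zmat3. Dppa3 went down with Dnmt3b in libraries 2 and 4, from 106 and 172 CPM at 0 UMIs to 78.1 and 90.3 CPM at 3 or more, and was 24.0 and 54.0 CPM at 0 and 44.6 and 84.2 CPM at 3 or more in libraries 1 and 3.

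**Figure D5:**
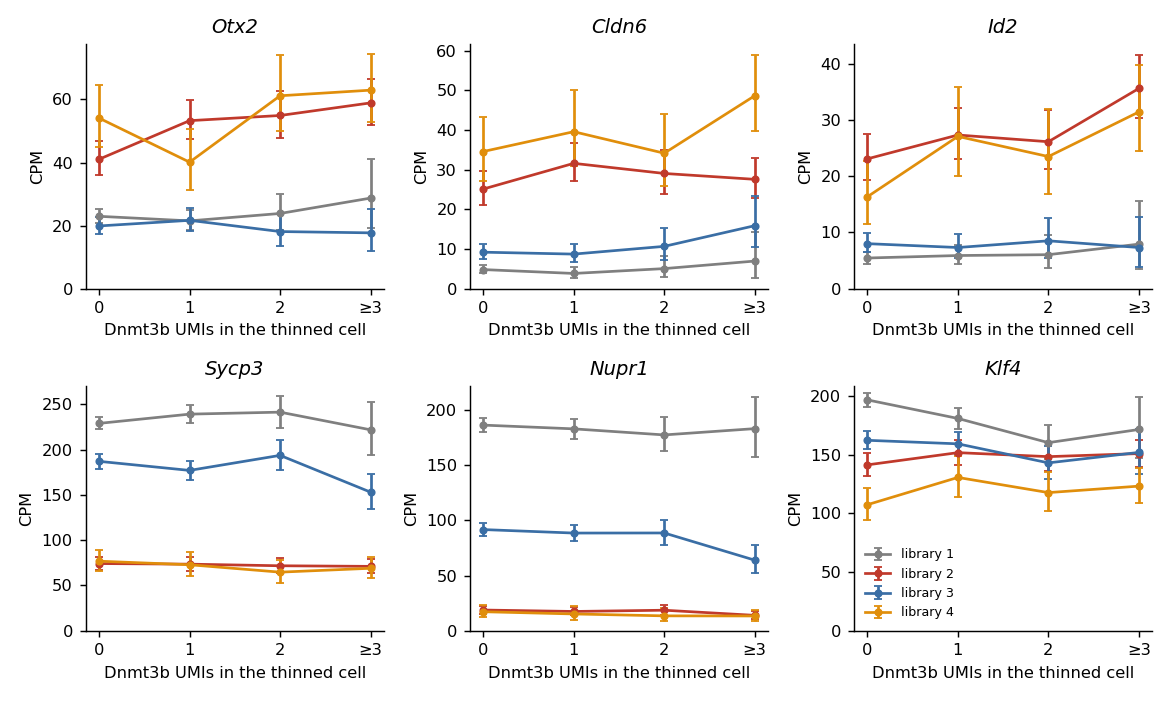
CPM of 6 genes in thinned naive cells grouped by their Dnmt3b UMIs (0, 1, 2, and 3 or more), with a line for each library and exact 95% Poisson intervals. At 0 Dnmt3b UMIs Otx2, Cldn6 and Id2 are higher, and Sycp3 and Nupr1 lower, in libraries 2 and 4 than in libraries 1 and 3.

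The ratio of variance to mean of a gene can rise with its mean count, so the values below do not say which of 2 genes of different levels varied more. After thinning, the median ratio of variance to mean over 6883 genes was 1.05 in library 2 and 1.05 in library 4, where counting alone gives 1, and 211 and 261 genes were above 1.5. Malat1, a nuclear non-coding RNA, stood at 19.7 and 23.3, and among transcripts of the mitochondrial genome mt-Co3 was at 13.3 and 12.8. Rhox5 (6.9 and 6.1), Actg1 (5.45 and 6.17) and the metallothionein Mt1 (5.23 and 7.91) were, like these, named by the rule for variable genes, which takes the 10 highest values and so favours abundant genes. Lefty1 was at 4.21 and 4.02. Among the naive regulators Klf4 stood at 1.68 and 1.88, Nanog at 1.34 and 1.33 and Esrrb at 1.02 and 1.12, and Otx2 was at 1.44 and 1.52. S100a13 stood at 2.24 in library 2 and 19.3 in library 4, so its level in library 4 may rest on few cells, which was not tested.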

How the data were processed

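Droplet 3′ single-cell libraries were prepared from 4 samples, 2 WT and 2 Srrm2 hKO. The authors deposited a single matrix of raw UMI counts from Cell Ranger 6.1.2 (mm10) and its aggregation step at default settings, which evens read depth between libraries, and that matrix held 32285 genes and 41142 barcodes. The study's own cell filter was then applied per library (UMIs and detected genes each at or above the mean minus 1 SD, mitochondrial share at most 10%). Counts of the chosen cells were summed per library and divided by the library's sum to give CPM, with exact Poisson, Clopper-Pearson and conditional binomial 95% intervals. Cells were thinned to 10000 UMIs without replacement where stated, which left out 18 to 54 naive cells per library. No doublet caller was used, and cells over 2 times the median UMIs were left out as an alternative. Counting rules used a mean CPM of at least 10 and 1.5-fold. The 8 genes of the limits were left out of them. Of symbols on several rows the row with most UMIs was used.

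The rules were tested on simulated counts for the comparison of libraries 2 and 4 with 1 and 3 over 7110 genes. They called 50 of 50 genes raised 3-fold, 50 of 50 raised 2-fold, and all changed genes that passed the CPM minimum among those lowered to 0.5 (44 of 50 passed) and to 0.333 (42 of 50 passed). The CPM minimum thus removes some lower genes before they can be counted. The simulated counts held counting error only and no spread between libraries, so recovery of changes this large says little about these data. The cells, the gene lists and the comparisons were chosen with earlier results of these data known. Genes were named by rule: the genes of the limits, the naive, general pluripotency and formative genes that met the CPM minimum, the 12 largest ratios each way, up to 4 counted members of every other list, the 10 most variable genes, Srrm2, Srrm1 and Sf3b1, and the leading genes between libraries 2 and 4 and against other kept cells. Predicted genes were counted but not named. Of the genes this rule names, 2 are not reported here. Other named genes, among them Atf4, Atf5, Apoe, Arrdc4, the meiotic genes beside Sycp3 and uncounted members of the lists, were chosen after their values were seen. Promoter windows came from RefSeq (GRCm38.p6) and positions from GENCODE M21. Python 3.11.15, numpy 2.4.6, scipy 1.17.1, pandas 2.3.3, and edgeR 4.0.16 in R 4.3.3 for TMM factors only, were used.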

Additional observations from a re-analysis of the deposited data

How the results depend on the processing

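No paired analysis was possible because the matrix carries no sample names and its library numbers could not be tied to replicate numbers. The share of kept cells meeting the limits moved beyond its counting interval in every library under some limits and in only some libraries under others. In libraries 1 to 4 it was 22.1%, 16.6%, 16.5% and 7.81% with Zfp42 of at least 10. With Dnmt3b of 0, chosen after seeing the data, it was 17.7%, 3.16%, 9.44% and 1.41%. Thinning gave 31.8%, 30.4% and 16.4% in libraries 2 to 4, and Dnmt3b under 5 gave 16.4%, 26.8% and 7.52% there. Libraries 1 and 3 stood at 54.8% and 33.7% with no Tbx3 limit and at 42.3% and 30.4% without cells over 2 times the median UMIs. The shares of library 1 with thinning (41.4%) and Dnmt3b under 5 (39.8%), and of libraries 2 and 4 with no Tbx3 limit (24.1% and 10.9%), stayed within their intervals. Library 4 had the smallest share and library 1 the largest under each of these.

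For genes higher and lower in libraries 2 and 4, the counts were 159 and 345 with TMM factors, 178 and 327 with median-of-ratios factors, 101 and 59 with a mean CPM of at least 50, 808 and 547 with one of at least 1, and 35 and 40 at 2-fold. Leaving out a library makes the rule easier to pass, and the counts then ran from 410 to 589 higher and from 265 to 365 lower, with 520 and 358 without library 2 and 589 and 365 without library 3. The other settings gave counts within 1.5 times of 308 and 214. With Dnmt3b of 0 they were 341, of which 212 were shared, and 189, of which 142 were shared. Of 59 named genes counted by the rule, 0 changed direction under any of 11 settings of cells and scaling, and 51 to 59 still passed it. These genes had already passed all 4 ratios, many were picked for large ratios, and the settings reuse many of the same cells. Little change was thus likely in advance, and the counts are no independent test. Genes differing between libraries 2 and 4 numbered 36 at a mean CPM of at least 50. Those higher in naive than other kept cells numbered 25 with TMM factors, 19 after thinning and 5 at a mean CPM of at least 50, where 18 were lower. The causes were not tested. Library 4 had the fewest naive cells, 801, and the fewest UMIs behind its gene levels.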
